A study of Mus musculus with 4 samples.

Results

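The proteasome subunit genes are the genes named Psma, Psmb, Psmc or Psmd with a number, and they were taken by that name alone from the deposited gene tables. Of 46517 listed genes, 39 carried such a name, and 37 of these 39 counted as measured, with an average of 10 or more exon reads per library. The same limit left 11352 genes in all. RNA came from PαS cells, a mesenchymal progenitor population positive for PDGFRα and Sca-1 that was sorted from injured tissue in and around the femur of wild-type C57BL/6J mice. The study's flow analysis of this tissue gated away blood and endothelial cells, and its methods do not state the gate of the sort. The cells were kept for 7 days in osteogenic medium with IL-17A (10 ng/ml) and BMP-2 (500 ng/ml) together, with IL-17A (10 ng/ml) alone, with BMP-2 (500 ng/ml) alone, or with neither cytokine (none), and each condition gave 1 library. IL-17A is a cytokine made by T cells and BMP-2 is a bone-inducing growth factor, and the design asks how IL-17A acts on these cells in the absence and in the presence of BMP-2. Mice used for bone regeneration work were females aged 6 to 8 weeks. How many mice stand behind each culture is not stated in the labels or methods, and no condition has a replicate.

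The proteasome is the large protease that degrades ubiquitin-tagged proteins. Its core particle is a stack of rings of alpha subunits, which form the gate, and beta subunits, of which those encoded by Psmb5, Psmb6 and Psmb7 carry the catalytic sites. Interferon induces alternative catalytic subunits, encoded by Psmb8, Psmb9 and Psmb10, which replace the standard ones in the immunoproteasome and favour peptides for MHC class I. The regulatory particle that caps the core consists of a base, with a ring of ATPases (Psmc genes) and non-ATPase scaffolds and ubiquitin receptors, and of a lid that removes ubiquitin. The transcription factor NFE2L1 raises the standard subunit genes together when proteasome activity is short. In bone, proteasomes are known as the target of bortezomib and as regulators of the osteoblast factors RUNX2 and SMAD.

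The libraries were of similar depth, with 4718877 exon reads in IL-17A+BMP-2, 4190612 in IL-17A, 4719412 in BMP-2 and 4673322 in none. The subunit genes took 0.824% of the exon reads in IL-17A+BMP-2, 0.697% in IL-17A, 0.693% in BMP-2 and 0.667% in none. The sort markers Pdgfra and Ly6a were present in every library, at a summed level of 1976 to 2424 CPM (reads scaled to a common library size by the trimmed mean of M-values, TMM). Of the markers gated away in the study's flow analysis, Pecam1 was at 0 in every library and Ptprc, Itgam and Cd34 together took at most 100 reads. Of 19 macrophage and myeloid markers, 18 were in the tables, with a summed level of 137 CPM in IL-17A+BMP-2, 175 in IL-17A, 499 in BMP-2 and 193 in none, while 10 lymphocyte markers took at most 6 reads together and 7 endothelial markers 12.8 to 33.1 CPM.

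Throughout, a gene was called higher or lower between 2 libraries where its CPM ratio was at least 1.5-fold from 1 and the exact 95% interval of the ratio (Clopper-Pearson on the 2 read counts) left out 1. Such an interval covers counting error in 2 libraries only, reads amplified by PCR are not independent molecules, and no ratio has a check between cultures. In RNA of a whole culture, fewer cells of a type and less RNA per cell cannot be told apart.

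Promoter sequence is shown for genes whose levels the results turn on. Start sites were taken from RefSeq (GRCm38.p6), which had 33 promoter windows for 31 of the 37 genes, each from 250 bases before to 50 after the start. On both strands, TGACNNNGC, the core of the antioxidant response element to which NFE2L1 and NFE2L2 bind with small MAF proteins, occurred in 12.4% of all 32851 promoters and in 5 of the 33 (15.2%), those of Psmb5, Psmb6, Psmc6, Psmd12 and Psmd9. TTCNNNGAA, the gamma-activated site of interferon-induced genes, occurred in 8.3% of all promoters and in 2 of the 33 (6.06%), those of Psmb8 and Psmd2, and GAAANNGAA, a part of the interferon-stimulated response element, occurred in 8.56% and in 5 of the 33 (15.2%). Below are the 120 bases before the start of Psmb5 (chr14:54617996-54618115, minus strand), the subunit with the highest level, and of Psmb6 (chr11:70525237-70525356, plus strand), both with TGACNNNGC in capitals, and those of Psmc5 (chr11:106256034-106256153, plus strand, ended where the gene starts in the deposited tables) and Psma7 (chr2:180042465-180042584, minus strand), which were higher with both cytokines and hold none of the first 2 motifs there. For Psmb8, 29 bases around the match to TTCNNNGAA are given, in capitals (chr17:34198088-34198116, plus strand). This stretch lies before the RefSeq start but inside the Psmb8 gene as the deposited tables place it (chr17:34197721-34201454).
Psmb5: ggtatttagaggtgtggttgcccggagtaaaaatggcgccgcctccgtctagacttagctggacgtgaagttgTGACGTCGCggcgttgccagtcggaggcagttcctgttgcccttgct
Psmb6: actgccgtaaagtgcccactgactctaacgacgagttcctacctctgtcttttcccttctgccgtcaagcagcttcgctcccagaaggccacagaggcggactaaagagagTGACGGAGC
Psmc5: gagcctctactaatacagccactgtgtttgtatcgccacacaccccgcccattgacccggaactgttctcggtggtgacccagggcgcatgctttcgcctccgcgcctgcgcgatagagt
Psma7: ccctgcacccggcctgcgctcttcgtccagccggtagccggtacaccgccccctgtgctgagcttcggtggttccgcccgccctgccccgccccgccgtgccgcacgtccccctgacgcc
Psmb8: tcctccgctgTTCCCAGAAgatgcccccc
A match is only a match of letters, and binding was not measured.

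Levels per length were compared as RPKM, exon reads scaled to exon length and to library size. In cells with both cytokines the median over the 7 standard beta subunits was 141 RPKM, over the 6 ATPases 132, over the 7 measured alpha subunits 87.2, over the 3 non-ATPase base subunits 58.1, over the 8 lid subunits 47.3, over the 3 regulatory particle assembly chaperones 19.5 and over the 3 inducible beta subunits 6.11. In cells with neither cytokine the same medians were 135, 88.7, 71.3, 64.3, 45.1, 18.4 and 8.43 RPKM. The standard beta class stood highest and the inducible beta class lowest in every library. Within the standard beta class the spread was wide, from Psmb7 at 27.8 RPKM in IL-17A+BMP-2, 29.5 in IL-17A, 31 in BMP-2 and 32.8 in none to Psmb5 at 1012, 395, 457 and 413 RPKM in the same libraries.

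**Figure D1:**
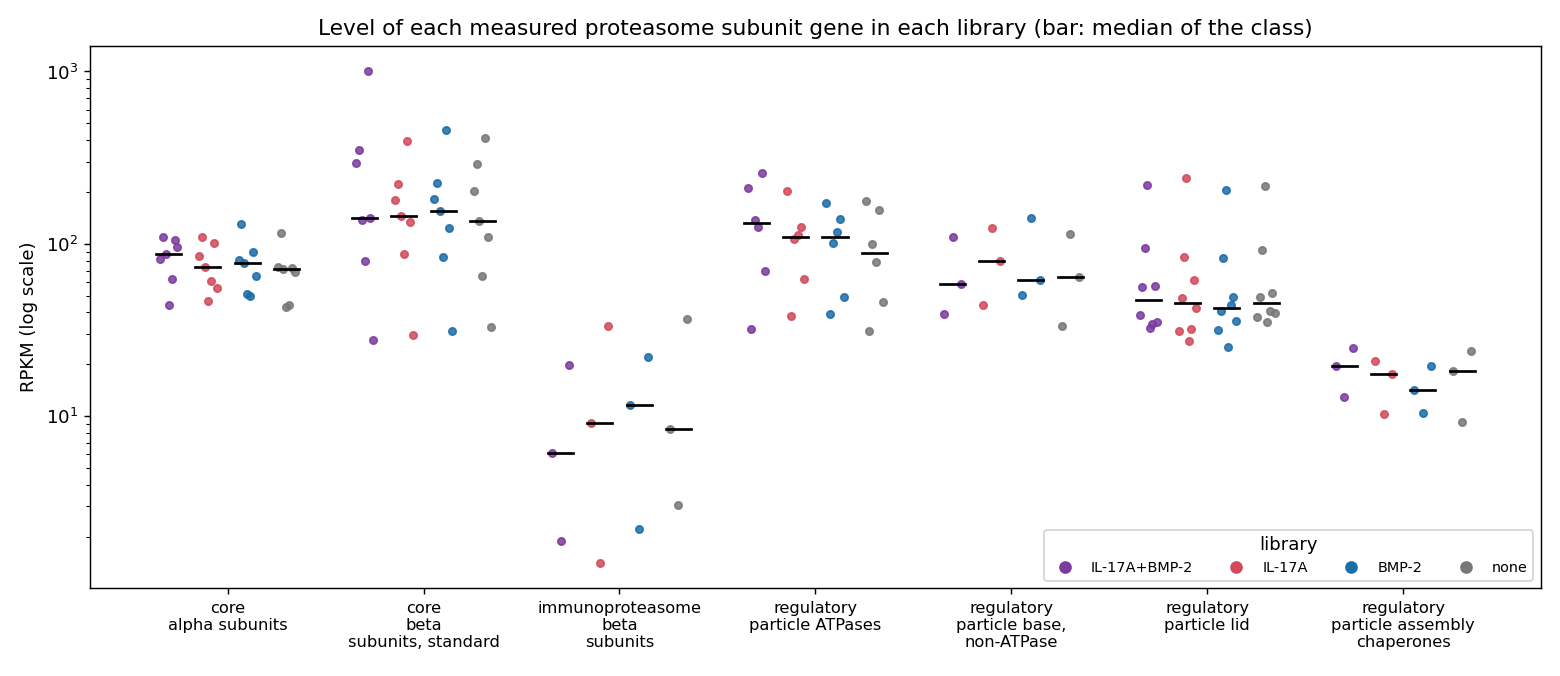
Level of each of the 37 measured proteasome subunit genes (points) in each library, in RPKM on a log scale, grouped by subunit class, with a bar at the class median. In cells with neither cytokine the class medians run from 135 RPKM for the standard beta subunits to 8.43 RPKM for the inducible beta subunits, and the highest point of all is Psmb5 at 1012 RPKM in IL-17A+BMP-2.

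Most subunit genes lay close to equality between libraries. For IL-17A over none, 0 members were called higher, against 19% of all measured genes, and 1 was called lower, against 17.3%. For BMP-2 over none, 1 was called higher (18.3% of all genes) and 1 lower (18.8%). For IL-17A+BMP-2 over none, 3 of 37 were called higher (20.6% of all genes) and 2 lower (22.1%). With BMP-2 present in both libraries, IL-17A+BMP-2 over BMP-2 gave 4 higher (21% of all genes) and 1 lower (21.9%), and with IL-17A present in both, IL-17A+BMP-2 over IL-17A gave 5 higher (18.1% of all genes) and 2 lower (21.5%). In each of the 5 comparisons the share of members called in either direction was below that of all genes, without matching for read depth.

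The median log2 ratio over the members was 0.08 for IL-17A over none, 0.03 for BMP-2 over none, 0.10 for IL-17A+BMP-2 over none, 0.15 for IL-17A+BMP-2 over BMP-2 and 0.05 for IL-17A+BMP-2 over IL-17A, and over all measured genes it was 0.00 to 2 decimals in each. The SD of the log2 ratios over the members was 0.30 to 0.42, against 1.03 to 1.31 over all genes. The gap was smaller at matched read depth. Among the 3641 genes with a mean of 221 to 1612 exon reads, which include 29 members, the SD was 0.27 to 0.33 over the members and 0.45 to 0.59 over all genes of the band, and 8.18% to 13% of the genes were called in a given direction. The band was set from the members' own read depths. It left out Psmb8, Psmb9 and Psmb10 (means of 118, 38.8 and 172 reads), which held every lower call among the members. It also left out Psmb5 (2458 reads), so the SD over the members is without these genes. No member within the band was called lower in any comparison, which follows from that choice. Of the 29, the number called higher was 0 in IL-17A over none (9.56% of the band's genes) and 1 in BMP-2 over none (8.18%). For IL-17A+BMP-2 it was 2 over none (13%), 3 over BMP-2 (12.5%) and 4 over IL-17A (10.4%). In the last of these the members' share was above that of the band's genes.

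**Figure D2:**
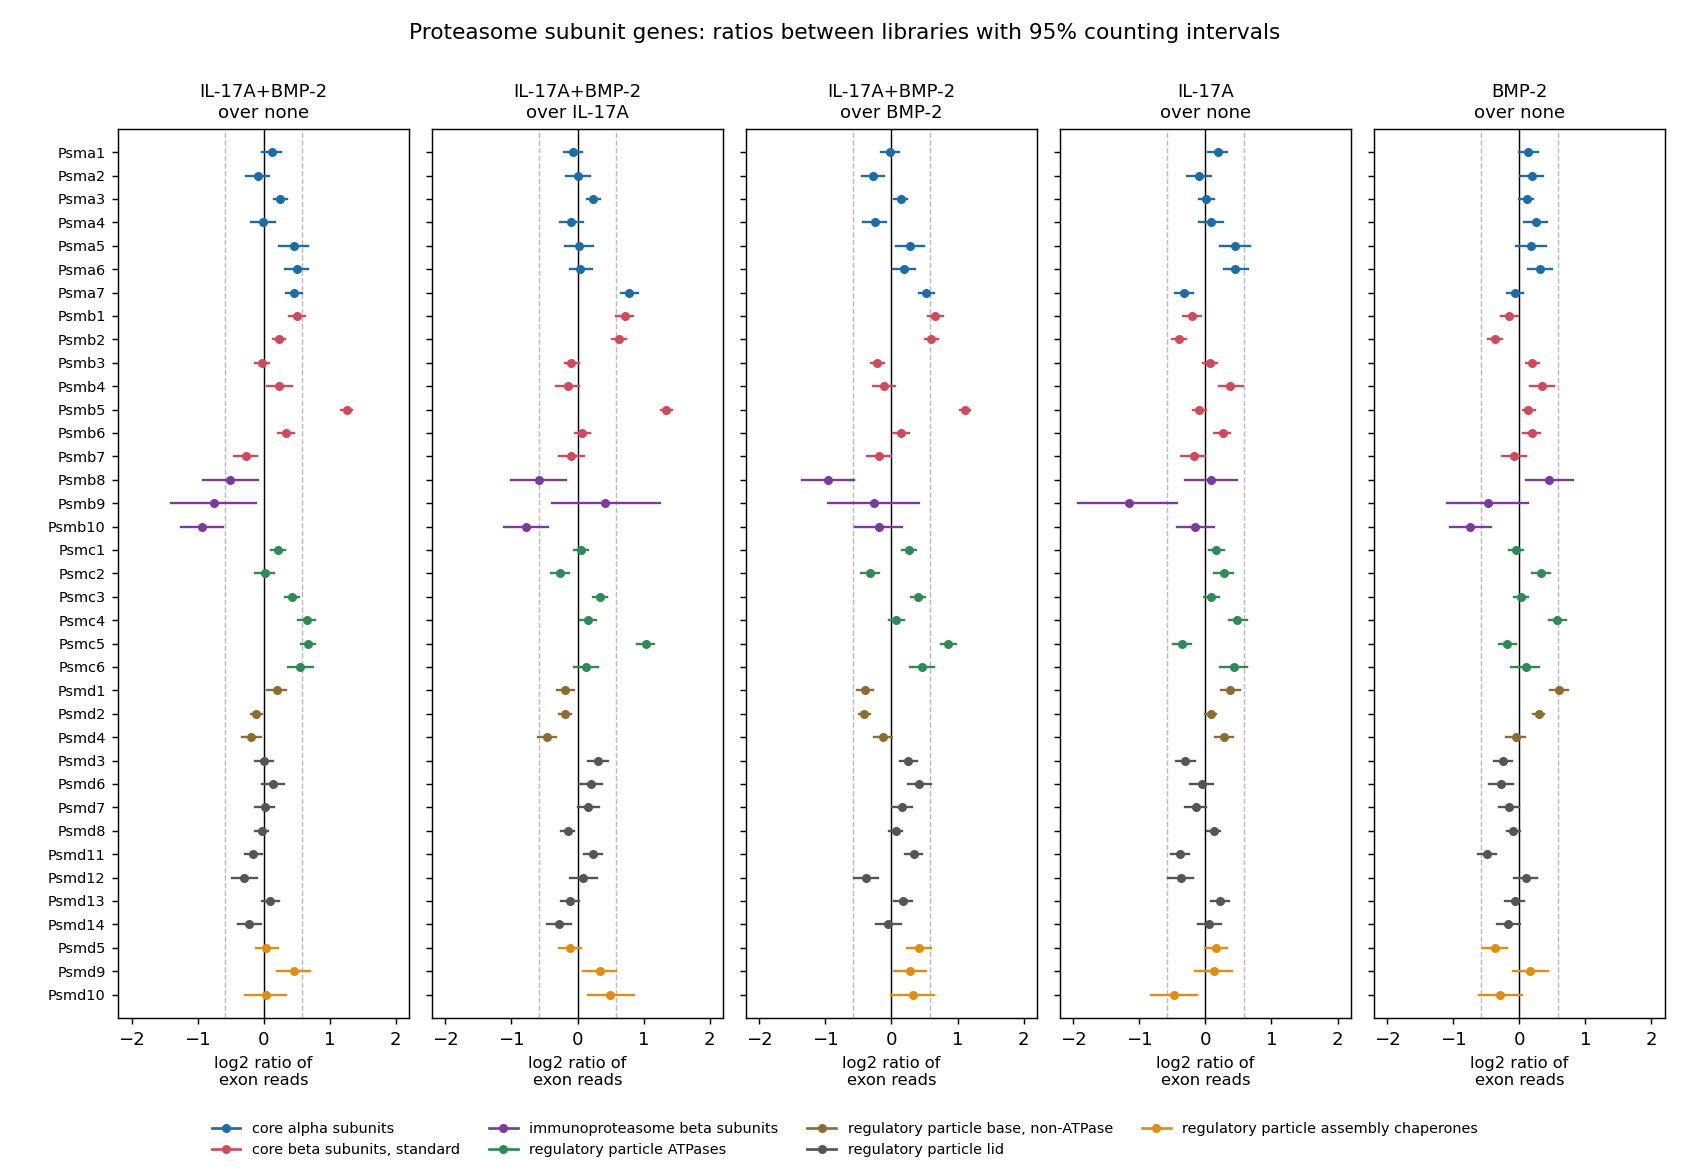
Log2 ratio of exon reads (TMM-scaled) of each of the 37 measured subunit genes in 5 comparisons of libraries, with exact 95% counting intervals. Solid lines mark equality, broken lines 1.5-fold, and colours the subunit class. Psmb5 stands highest in the 3 comparisons that involve IL-17A+BMP-2, and the inducible subunits Psmb8, Psmb9 and Psmb10 hold the lowest points of IL-17A+BMP-2 over none.

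A count model was fitted to all 11352 genes with IL-17A and BMP-2 as additive terms (edgeR quasi-likelihood test, Benjamini-Hochberg adjustment). Its 1 residual degree of freedom measures departure from additivity and is no spread between cultures. It called 1 gene for IL-17A (0.00881% of all) and 0 for BMP-2 (0%), with 623 and 412 genes at an unadjusted p under 0.05. Of the 37 members it called 0 in both terms, 0 were at an unadjusted p under 0.05, and the lowest adjusted p in edgeR was 0.917 in the IL-17A term (Psmc6) and 0.987 in the BMP-2 term, which 11 members shared. The Wald test of DESeq2 on the same design called 49 genes for IL-17A and 9 for BMP-2, and again 0 members.

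The alpha subunits, which build the outer rings and the gate of the core, were even in level. Their summed reads were 1.2 times those of none with both cytokines (95% interval 1.15 to 1.24), 1.04 times with IL-17A (0.995 to 1.08) and 1.09 times with BMP-2 (1.05 to 1.13). Psma7 was the only alpha subunit called. It had 313 CPM in IL-17A+BMP-2, 182 in IL-17A, 218 in BMP-2 and 228 in none (1504, 768, 1019 and 1046 reads), so that it was highest with both cytokines and lowest with IL-17A alone, at a ratio of 1.72 (1.57 to 1.88) between those 2 libraries. Against none the ratio was 1.37 (1.27 to 1.49) with both cytokines, short of 1.5-fold, and 0.8 (0.728 to 0.879) with IL-17A. Psma3, the most abundant by reads, had 1726 reads in IL-17A+BMP-2, 1285 in IL-17A, 1521 in BMP-2 and 1384 in none, but only 29.6% to 34.3% of them mapped to 1 place, and by uniquely mapped reads its ratio of IL-17A+BMP-2 over BMP-2 was 0.957 in place of 1.11. Psma5, the measured one with the fewest reads, had 419, 363, 335 and 291 reads in the same order of libraries, and it was 1.38 times as high with both cytokines and 1.36 times with IL-17A as with neither. Psma8, an alpha form of the testis, had 0 reads in each of the 3 cytokine libraries and 20 in none, and was not measured by the rule. A count of 0 allows up to 3 reads at this depth.

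Among the standard beta subunits, Psmb5, Psmb1 and Psmb2 were called by exon reads, each higher with both cytokines than with either alone. The other 4 stayed within 1.5-fold, and by junction reads only Psmb2 was called. Summed over the 7 genes, reads were 1.42 times as many in IL-17A+BMP-2 as in none (1.38 to 1.46), 0.961 times in IL-17A (0.931 to 0.992) and 1.02 times in BMP-2 (0.987 to 1.05). Much of the 1.42 was Psmb5, which encodes the subunit with chymotrypsin-like activity and is the main target of bortezomib. It had 932 CPM in IL-17A+BMP-2, 366 in IL-17A, 431 in BMP-2 and 390 in none (4479, 1544, 2016 and 1792 reads). The library with both cytokines stood apart and the other 3 lay close to each other. The ratios were 2.39 over none (2.26 to 2.52), 2.16 over BMP-2 (2.05 to 2.28) and 2.54 over IL-17A (2.4 to 2.7), the largest of any member in each of these comparisons. Without Psmb5 the summed ratio of IL-17A+BMP-2 over none was 1.15 (1.11 to 1.19), and by junction reads of all 7 genes it was 1.07 (1.04 to 1.11).

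The reads of Psmb5 that crossed a junction between exons did not follow this pattern. They numbered 458 in IL-17A+BMP-2, 376 in IL-17A, 481 in BMP-2 and 385 in none, which gave ratios for IL-17A+BMP-2 of 1.14 over none (0.995 to 1.31), 0.944 over BMP-2 (0.829 to 1.08) and 1.09 over IL-17A, whose interval also took in 1. Junction reads were 10.2% of the exon reads of Psmb5 in IL-17A+BMP-2 (95% Wilson score interval 9.37% to 11.1%), 24.4% in IL-17A, 23.9% in BMP-2 and 21.5% in none, whereas over all genes they were 53.1% to 53.9%. Uniquely mapped reads, 95.7% of the Psmb5 reads in IL-17A+BMP-2, gave ratios of 2.48, 2.25 and 2.74 over none, BMP-2 and IL-17A. The higher count was therefore carried by uniquely placed reads within exons, and it was absent from reads that join them. The deposited gene model of Psmb5 has 3 exons and an exon length of 871 bases, and its intron reads numbered at most 10 in any library.

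Psmb1, a noncatalytic beta subunit, showed the same split. It had 323 CPM in IL-17A+BMP-2, 198 in IL-17A, 205 in BMP-2 and 228 in none (1555, 833, 958 and 1046 reads), with ratios of 1.42 over none (1.31 to 1.54), 1.58 over BMP-2 (1.46 to 1.71) and 1.64 over IL-17A (1.5 to 1.78). Its junction reads numbered 484, 459, 486 and 523 in the same order of libraries, and their ratios were 0.888 over none, 0.988 over BMP-2 and 0.945 over IL-17A. Of 36 members with enough reads for this check (a mean of at least 100 exon and 50 junction reads), Psmb1 and Psmb5 were the only ones whose ratio by exon reads was at least 1.5 times that by junction reads, in each of the 3 comparisons with IL-17A+BMP-2. Among the 5672 genes with that depth, 1.89% were so over none, 2.05% over BMP-2 and 2.13% over IL-17A. The deposited exon length of Psmb1 was 1036 bases, against 4595 exonic bases in GENCODE M21. What the unspliced reads of these 2 genes stand for was not tested.

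**Figure D3:**
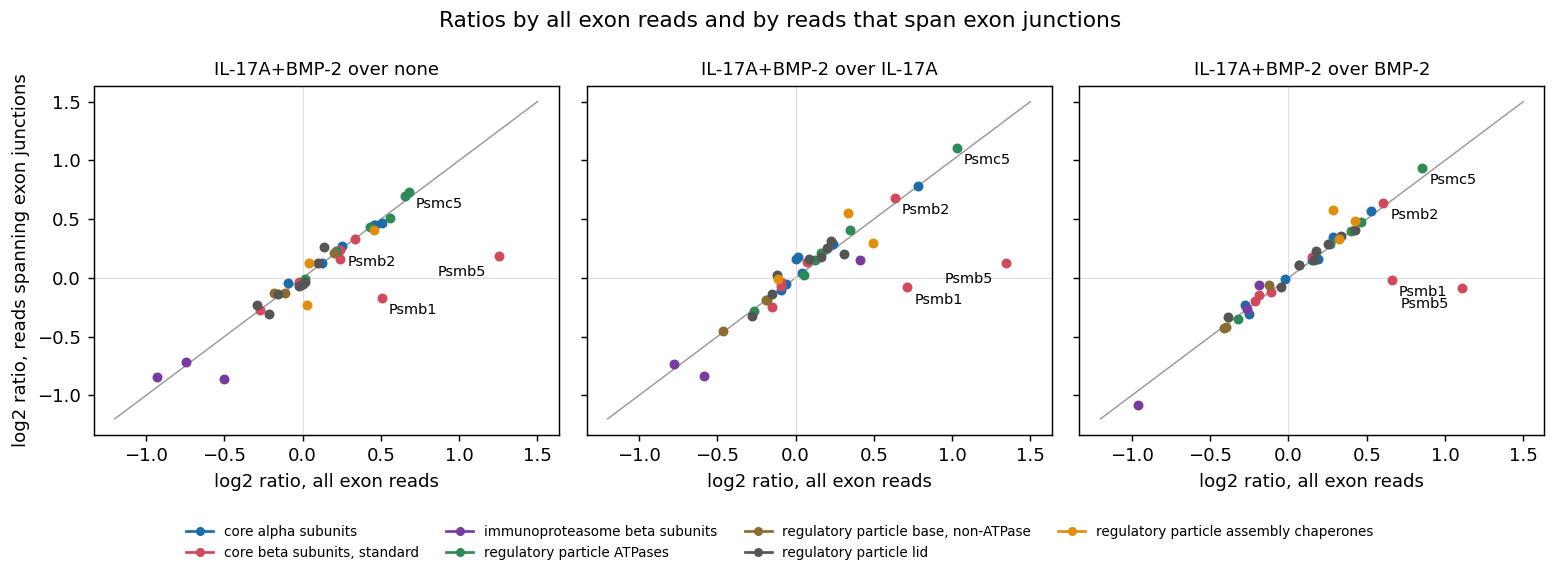
Log2 ratio by junction reads (y axis) against log2 ratio by all exon reads (x axis) for the 37 measured subunit genes in the 3 comparisons with IL-17A+BMP-2, coloured by class, with the line of equality. Psmb5 and Psmb1 lie far to the right of the line, at 2.39 and 1.42 by exon reads against 1.14 and 0.888 by junction reads over none, while Psmc5 and Psmb2 lie on it.

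Psmb2, another noncatalytic beta subunit, kept its ratios by either kind of read. It had 444 CPM in IL-17A+BMP-2, 286 in IL-17A, 292 in BMP-2 and 378 in none (2134, 1208, 1369 and 1735 reads). Each cytokine alone went with less Psmb2, 0.759 times with IL-17A (0.704 to 0.817) and 0.774 times with BMP-2 (0.721 to 0.832), and both together with 1.18 times the level of none. Calls were reached only against the single cytokines, at 1.52 over BMP-2 (1.42 to 1.63) and 1.55 over IL-17A (1.44 to 1.66), and junction reads gave 1.56 and 1.6. The catalytic Psmb6, with caspase-like activity, had 278 CPM in IL-17A+BMP-2, 264 in IL-17A, 251 in BMP-2 and 221 in none (1339, 1115, 1176 and 1016 reads), and was 1.26 times the level of none with both cytokines (1.16 to 1.37). Psmb7, with trypsin-like activity, had 101, 107, 115 and 122 CPM in the same order (484, 453, 538 and 559 reads), and its ratio of IL-17A+BMP-2 over none was 0.827 (0.731 to 0.936). The 3 standard catalytic genes thus did not share 1 direction with both cytokines. Psmb7 overlaps Nek6 on the other strand, and the cDNA kit does not mark strand.

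The 3 inducible catalytic genes were each lowest, or next to lowest, in the library with both cytokines. Psmb10, the counterpart of Psmb7, had 26.4 CPM in IL-17A+BMP-2, 45.3 in IL-17A, 30.1 in BMP-2 and 50.3 in none (127, 191, 141 and 231 reads). Its level was low in both libraries with BMP-2 and high in both without it. BMP-2 went with 0.599 times the level of none (0.482 to 0.742), and in the presence of IL-17A with 0.583 times (0.462 to 0.734), while IL-17A gave 0.901 without BMP-2 (0.74 to 1.1) and 0.877 with it (0.685 to 1.12). It was the only member called the same way for one cytokine in both states of the other. By junction reads the 2 ratios for BMP-2 were 0.583 and 0.601.

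Psmb8, the counterpart of Psmb5, had 17.7 CPM in IL-17A+BMP-2, 26.6 in IL-17A, 34.4 in BMP-2 and 25 in none (85, 112, 161 and 115 reads). It was highest with BMP-2 alone and lowest with both, at 0.514 times BMP-2 (0.391 to 0.673) and 0.666 times IL-17A (0.496 to 0.89). BMP-2 alone gave 1.37 times none by exon reads (1.07 to 1.76). Unique reads gave 1.11 (0.829 to 1.48) and junction reads 1.17 (0.863 to 1.59), both within counting error. With both cytokines the ratio over none was 0.706 (0.527 to 0.943), which was not called, whereas unique reads gave 0.556 (0.39 to 0.785) and junction reads 0.55 (0.376 to 0.797), both called. The macrophage and myeloid markers summed to 137, 175, 499 and 193 CPM in the same order of libraries. That sum was also highest with BMP-2 alone and lowest with both, and most of it was Lyz2 (85.3, 121, 369 and 119 CPM). For IL-17A+BMP-2 over BMP-2, 12 of 14 measured markers were called lower and 1 higher, against 21.9% and 21% of all genes. Some of the 14 met the limit of 10 reads mainly through the BMP-2 library, such as Mpeg1 (1, 0, 60 and 0 reads) and Fcer1g (0, 0, 35 and 9). For such markers the limit itself favours a lower call against BMP-2. The 1 marker called higher was Csf1r (38.1, 25.6, 13 and 28.3 CPM), and Adgre1 had 0 reads in both libraries with BMP-2. The part of these markers in the Psmb8 values was not tested. Psmb9, the counterpart of Psmb6, was the least abundant measured member, with 7.28, 5.45, 8.76 and 12.2 CPM (35, 23, 41 and 56 reads). It was highest in none, and was called lower with IL-17A (0.448, 0.263 to 0.739) and with both cytokines (0.597, 0.38 to 0.927), but not with BMP-2 (0.718, 0.468 to 1.09). Psmb9 shares 212 bases with Tap1 on the other strand, so reads from that stretch cannot be assigned to either gene.

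Set against each other per exon length, the inducible genes made up 2.29% of the RPKM of the 6 catalytic genes in IL-17A+BMP-2, 7.32% in IL-17A, 5.52% in BMP-2 and 7.97% in none. The order of the libraries was the same by unique reads (1.98%, 6.71%, 4.6% and 7.18%) and by junction reads (8.25%, 13.7%, 10% and 15.6%), but the size of the gap was not, and Psmb5 enters the denominator. Leaving out the pair of Psmb5 and Psmb8, the share was 11.3% in IL-17A+BMP-2, 17.7% in IL-17A, 13.5% in BMP-2 and 21.8% in none. By pair, Psmb10 made up 41.4%, 53.2%, 41.4% and 52.7% of the RPKM of Psmb10 plus Psmb7 in the same order. This like level holds per exon length only, with deposited exon lengths of 3421 bases for Psmb7 and 1270 for Psmb10. By reads, Psmb7 was higher in every library (484, 453, 538 and 559 against 127, 191, 141 and 231). How far the length of the gene models enters the shares was not tested. Psmb9 was 1.04% to 2.74% of its pair and Psmb8 0.601% to 2.48%. By junction reads, Psmb8 was 3.16% of its pair in IL-17A+BMP-2, 5.97% in IL-17A, 6.15% in BMP-2 and 6.35% in none. The thymus subunit gene Psmb11 had 0 reads in all 4 libraries.

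**Figure D4:**
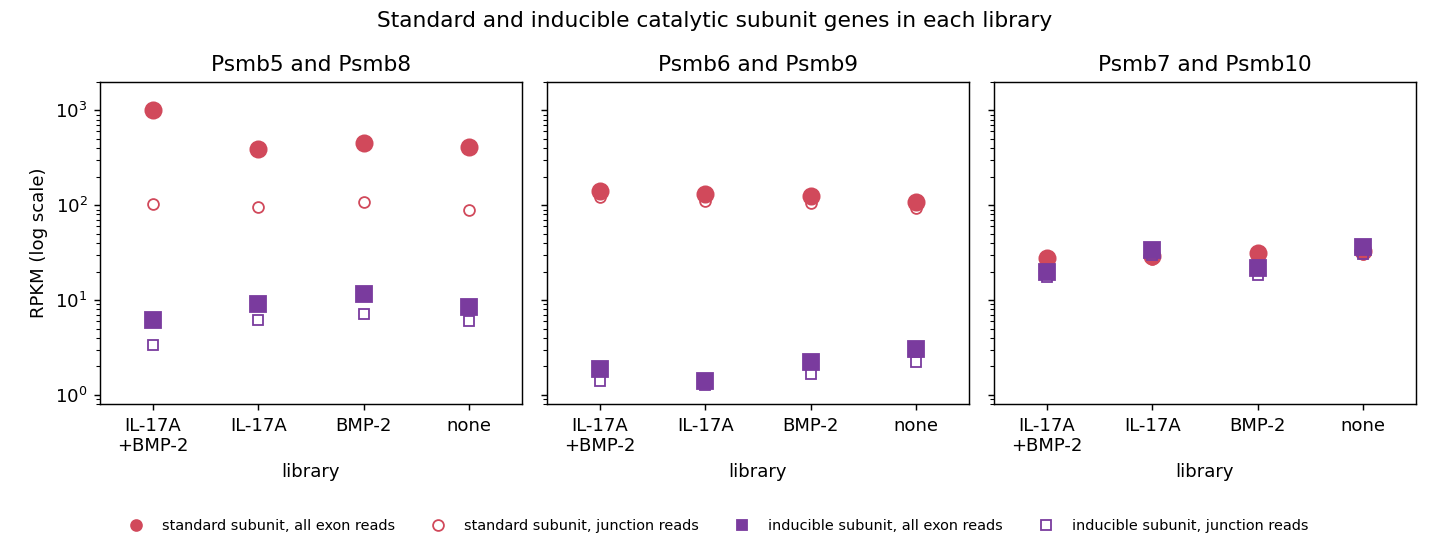
RPKM on a log scale of each standard catalytic gene (circles) and its inducible counterpart (squares) in each library, by all exon reads (filled) and by junction reads at the same scale (open). The filled point of Psmb5 in IL-17A+BMP-2, at 1012 RPKM, lies above its other filled points while the open ones are level, and Psmb10 lies near Psmb7 in all 4 libraries.

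The ATPases of the base, which unfold substrates and open the gate, lay above none as a class with both cytokines. All 6 had a ratio above 1 for IL-17A+BMP-2 over none, 5 of them beyond counting error, with a median log2 ratio of 0.49 and a summed ratio of 1.34 (1.3 to 1.39). Psmc5 had 379 CPM in IL-17A+BMP-2, 186 in IL-17A, 209 in BMP-2 and 238 in none (1824, 785, 980 and 1092 reads). It was lower than none with each cytokine alone and highest with both, with ratios of 1.6 over none (1.48 to 1.72), 1.81 over BMP-2 (1.68 to 1.96) and 2.04 over IL-17A (1.87 to 2.22), and junction reads gave 1.66, 1.91 and 2.15. Psmc4 had a different pattern. It had 289, 259, 274 and 184 CPM in the same order (1389, 1090, 1283 and 846 reads), and so was similar in the 3 cytokine libraries and lower in none. Its ratio over none was 1.57 with both (1.44 to 1.71), 1.4 with IL-17A (1.28 to 1.54) and 1.49 with BMP-2 (1.36 to 1.63), of which only the first was called.

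The other ATPases were not called. Psmc3, the one with the most reads, had 1817 reads in IL-17A+BMP-2, 1256 in IL-17A, 1338 in BMP-2 and 1288 in none, a ratio of 1.35 over none, and it overlaps Slc39a13 on the other strand. Psmc6, the ATPase with the fewest reads, had 551, 442, 389 and 358 reads in the same order and a ratio of 1.47 over none with both cytokines. The summed ratio of the class by reads was 1.11 with IL-17A (1.07 to 1.15) and 1.09 with BMP-2 (1.05 to 1.13).

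The 3 non-ATPase subunits of the base went the other way from the ATPases between the libraries with BMP-2. Their summed reads were 0.783 times those of BMP-2 alone when IL-17A was added (0.751 to 0.817), and 1.22 times those of none with BMP-2 alone (1.17 to 1.28). Psmd1, a large scaffold of the base, had 189 CPM in IL-17A+BMP-2, 215 in IL-17A, 249 in BMP-2 and 165 in none (908, 905, 1167 and 756 reads). It was highest with BMP-2 alone, at 1.51 times none (1.38 to 1.66), a ratio at the threshold that unique reads put at 1.48, below it, and junction reads at 1.55. Psmd2, the scaffold that docks ubiquitin shuttle proteins and the one with the most reads in the class, had 464, 530, 616 and 501 CPM in the same order (2232, 2235, 2886 and 2302 reads), and was also highest with BMP-2 alone. Psmd4, a ubiquitin receptor, was highest with IL-17A alone, with 829, 1000, 881 and 900 reads in the same order.

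No lid subunit was called in any comparison. The summed reads of the 8 genes were 0.974 times those of none with both cytokines (0.942 to 1.01), 0.952 times with IL-17A (0.92 to 0.985) and 0.884 times with BMP-2 (0.854 to 0.915). Single ratios of IL-17A+BMP-2 over none ran from 0.818 to 1.1. Psmd8, the one with the most reads, had 355 CPM in IL-17A+BMP-2, 395 in IL-17A, 340 in BMP-2 and 362 in none (1709, 1666, 1591 and 1663 reads), and was among the most even of all members. Psmd12, the lid gene with the fewest reads, had 463, 383, 589 and 541 reads in the same order, with less in both libraries with IL-17A, at 0.771 times none and 0.765 times BMP-2. The remaining lid genes, which include the deubiquitinase Psmd14, lay between 0.712 and 1.34 in all 5 comparisons.

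Psmd5, Psmd9 and Psmd10 encode chaperones that assemble the regulatory particle and are not part of the finished complex, and none was called. Psmd5 had 608 reads in IL-17A+BMP-2, 576 in IL-17A, 442 in BMP-2 and 562 in none, lowest with BMP-2 alone. Psmd10, the oncoprotein gankyrin, had 187, 116, 146 and 175 reads in the same order, lowest with IL-17A alone. The class sum was 1.11 times none with both cytokines (1.02 to 1.21).

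Of 21 further proteasome genes that do not carry a member's name, 2 were called higher and 4 lower in IL-17A+BMP-2 over none, against 3 and 2 of the 37 members and 20.6% and 22.1% of all genes. For IL-17A over none the count was 0 in both directions, for BMP-2 over none 1 higher and 3 lower, for IL-17A+BMP-2 over BMP-2 4 higher and 1 lower, and for IL-17A+BMP-2 over IL-17A 2 in each direction, where 17.3% to 21.9% of all genes were called per direction. Psme1, a subunit of the interferon-induced PA28 activator, had 32.7 CPM in IL-17A+BMP-2, 55.7 in IL-17A, 41.6 in BMP-2 and 67.9 in none, the same order of libraries as Psmb10. It was lower with BMP-2 without IL-17A (0.613, 0.51 to 0.736) and with it (0.586, 0.476 to 0.72). Its partner Psme2 had 90.5, 123, 142 and 133 CPM in the same order, and was called lower only for IL-17A+BMP-2 over BMP-2 (0.636, 0.562 to 0.719). Psme3, which encodes the nuclear PA28 gamma, had 246, 171, 155 and 166 CPM, at 1.59 times BMP-2 with both cytokines. Psme4, an activator known from sperm and DNA repair, had 46, 24, 35.5 and 22.9 CPM, and was higher with BMP-2 in both states of IL-17A (1.55 and 1.92). The inhibitor Psmf1 had 93, 51.5, 53 and 74.2 CPM. The chaperone gene Pomp, which is needed to build the core, had 293, 234, 244 and 251 CPM and was not called, nor was the ubiquitin receptor Adrm1, with 184, 213, 149 and 187 CPM.

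Of 10 genes of the NFE2L1 route, 3 were called higher and 3 lower for IL-17A+BMP-2 over none, against 20.6% and 22.1% of all genes. The median log2 ratio over the 10 was 0.00. The 3 called higher were Ddi2 (1.58), Maff (1.68) and Mafg (1.58), and the 3 called lower were Ngly1 (0.353), Maf (0.31) and Sel1l (0.619). Ddi2 was also called higher with IL-17A alone (1.73) and Maff with BMP-2 alone (1.61), each over none. By junction reads of IL-17A+BMP-2 over none, Ddi2 gave 2.03, while Maff (1.34) and Mafg (0.96) lay within counting error. Nfe2l1 itself had 243 CPM in IL-17A+BMP-2, 262 in IL-17A, 229 in BMP-2 and 190 in none, at 1.28 times none with both cytokines (1.17 to 1.4) and 1.38 with IL-17A (1.26 to 1.51), below the threshold. Ngly1, the glycanase that processes the NFE2L1 protein, had 16.2, 24.9, 43.6 and 45.9 CPM in the same order and was lower with IL-17A both without BMP-2 (0.542, 0.425 to 0.688) and with it (0.372, 0.283 to 0.486). Maf was lower with IL-17A in both states as well (0.206 and 0.16), on 12, 7, 73 and 37 reads. Vcp, the segregase that extracts NFE2L1 from the membrane and the gene of the list with the most reads, was even by all exon reads, with 1008, 1078, 892 and 1022 CPM. Only 20.2% to 25.4% of its reads mapped to 1 place. By these, IL-17A+BMP-2 was 0.823 times none (0.755 to 0.897) and 0.745 times IL-17A (0.684 to 0.812). Sel1l, of the ubiquitin ligase complex that turns NFE2L1 over, was called lower only where both cytokines were present, with 158, 247, 241 and 256 CPM.

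Genes of MHC class I presentation, to which the immunoproteasome delivers peptides, were called lower for 4 and higher for 1 of 9 in IL-17A+BMP-2 over none, against 22.1% and 20.6% of all genes. Tap1, the peptide transporter subunit beside Psmb9, had 57 CPM in IL-17A+BMP-2, 32.5 in IL-17A, 14.3 in BMP-2 and 59.6 in none. It did not follow Psmb9, since both cytokines together gave 0.956 times none (0.805 to 1.13) and BMP-2 alone 0.24 times (0.181 to 0.314). Erap1, which trims peptides, had 11, 32.3, 18.6 and 42.9 CPM, and was lower with BMP-2 in both states of IL-17A (0.433 and 0.342). The class I heavy chain gene H2-D1 was even, with 535, 438, 524 and 474 CPM. B2m, the light chain, had 724, 947, 1297 and 859 CPM, but its ratio of IL-17A+BMP-2 over none was 0.842 by all exon reads, 1.38 by unique reads and 1.37 by junction reads, so no direction is given. The 1 gene called higher was Nlrc5, the class I transactivator, with 49, 20, 58 and 0 reads. Of 16 interferon response genes, 11 were measured, and for IL-17A+BMP-2 over none 0 were called higher and 5 lower, among them Stat2, with 11.6, 32.5, 36.7 and 42.2 CPM. Of 14 measured macrophage and myeloid markers, 0 were called higher and 8 lower in the same comparison, and their part in the interferon counts was not tested. Usp18, an interferon-induced protease, had 0 reads in both libraries with IL-17A, against 28 in BMP-2 and 37 in none. Of the genes that supply ubiquitin, the polyubiquitin gene Ubb was even, with 3257, 2761, 3110 and 3207 CPM in the same order.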

How the data were processed

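Total RNA of 4 cultures was turned into full-length cDNA and amplified by PCR with a low-input kit that does not mark strand, and was read on an Ion Proton. The authors analysed the reads in CLC Genomics Workbench against mm10 and deposited, per gene and library, counts of total, unique and exon junction reads and RPKM values, which the deposited counts and exon lengths reproduce. For mapping settings and the program's version, the sources used here give nothing. TMM factors (edgeR 4.0.16) were applied to the total exon read counts of the 11352 genes averaging 10 reads or more, and libraries were compared as ratios of CPM with exact 95% intervals. Medians and SDs are of log2(CPM + 0.5). The additive model used edgeR's quasi-likelihood test with Benjamini-Hochberg adjustment at 0.05, and DESeq2 1.42.0 as an alternative. The edgeR fit and the intervals were tested on simulated data. Named members were Psmb5 to Psmb10, those with the most and the fewest mean reads in each class, and those called in any comparison or changed by unique reads. Of the other lists, a selection was named by level, or by calls in both states of the other cytokine, besides Psme1, Psme2, Nfe2l1 and Tap1. Ddi2, Maff, Mafg and the markers Lyz2, Csf1r, Adgre1, Mpeg1 and Fcer1g were named after the data were seen. The members and lists were chosen with earlier results of these data known. Alternatives were 3 other scalings, unique and junction reads, minimum means of 50 and 1 read, a fold of 2 and one below 1.5, and a pseudocount of 5. Junction reads and the omission of Psmb5 in the summed beta ratio were added after the data were seen. Some genes of the other lists are not reported here.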

Additional observations from a re-analysis of the deposited data

Results flagged for a closer look

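For 7 named subunit genes the ratio for 1 cytokine lay beyond counting error on one side of 1 without the other cytokine and on the opposite side with it. The difference between the 2 ratios was not tested, since each rests on 1 library per condition. It is given here as the departure from additivity, the log2 ratio with the other cytokine minus that without it. For IL-17A and for BMP-2 alike the sides were opposite for Psmc5 (1.21), Psmb2 (1.0), Psmb1 (0.86) and Psmd1 (-0.78). For the IL-17A ratios only they were so for Psma7 (0.84), and for the BMP-2 ratios only for Psmb8 (-1.02) and Psmd2 (-0.49). The ratio of Psmb8 for BMP-2 over none was 1.37 (1.07 to 1.76) by exon reads, but 1.11 (0.829 to 1.48) by unique reads and 1.17 (0.863 to 1.59) by junction reads, both within counting error. The departure of Psmb1 is by exon reads, and its junction reads had ratios of 0.94 for IL-17A over none and 0.988 for IL-17A+BMP-2 over BMP-2. Among all 37 members the sides were opposite for 8 genes (21.6%) for IL-17A, against 17.1% of the 11352 measured genes, and for 10 (27%) for BMP-2, against 18.3%. These shares were not matched for read depth, on which the width of the intervals depends.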

How the results depend on the processing

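With 1 library per condition, intervals cover counting error only. No paired analysis was possible because no condition has a second library. The median log2 ratios of the members moved by less than the members' counting error under every alternative run, though that of BMP-2 over none (0.03) was -0.05 with junction reads and -0.01 with a minimum of 1 read. No other scaling turned the direction of a named ratio whose interval left out 1. Lower calls in IL-17A+BMP-2 over IL-17A numbered 1 (Psmb10) with DESeq2 size factors and with scaling by total exon reads, without Psmb8. Higher calls in BMP-2 over none numbered 2 with scaling by total exon reads and 0 with unique reads. With junction reads, higher calls numbered 2 over BMP-2 and 3 over IL-17A, without Psmb1 and Psmb5. A minimum of 50 reads removed Psmb9, leaving 0 lower calls in IL-17A over none and 1 in IL-17A+BMP-2 over none, and a minimum of 1 read added Psma8, for 2 lower calls each in IL-17A over none and BMP-2 over none. At a fold of 2, higher and lower calls were 0 and 0 in BMP-2 over none, 1 and 0 in IL-17A+BMP-2 over none and over BMP-2, and 2 and 0 over IL-17A. At the one fold tried below 1.5 they were 6 and 6 in IL-17A over none, 5 and 4 in BMP-2 over none, 11 higher in IL-17A+BMP-2 over none, 10 and 5 over BMP-2 and 8 higher over IL-17A. Of all measured genes, 9.91% to 14.1% were called per direction and comparison at a fold of 2, and 24.8% to 29.3% at the fold below 1.5. The inducible share of catalytic RPKM was 1.98% by unique and 8.25% by junction reads in IL-17A+BMP-2, 13.7% by junction reads in IL-17A, 4.6% and 10% in BMP-2, and 7.18% and 15.6% in none. The IL-17A term called 49 genes with DESeq2 and 0 with unique reads in edgeR, and the BMP-2 term 9 with DESeq2. Among named genes, unique and junction reads turned B2m (for IL-17A over none 0.982 and 0.964, for IL-17A+BMP-2 1.38 and 1.37 over none, 1.06 and 1.07 over BMP-2, 1.4 and 1.43 over IL-17A). Unique reads turned Psma3 (0.957) and Vcp (0.918), and junction reads Psmb5 (0.944), over BMP-2. Junction reads turned Psmb1 (0.888 over none, 0.988 over BMP-2, 0.945 over IL-17A). The cause of these shifts was not tested.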
